A study of Mus musculus with 17 samples.

Results

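Lumbar dorsal root ganglia (DRGs) of uninjured Mtor-cKOAdv mice were compared with those of uninjured Mtor fl/fl mice by RNA-Seq, with 4 libraries of each genotype out of 17 libraries in the series. The comparison covered every gene whose mean level reached 1 FPKM (fragments per kilobase of transcript, scaled to library size) in at least 1 of these 2 groups, which were 13079 of 19152 genes. Of these, 12616 genes reached that level in both genotypes, 147 only in Mtor-cKOAdv and 316 only in Mtor fl/fl DRGs. The lowest group mean that entered was 1 FPKM and the highest that stayed out was 0.9975 FPKM.

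Both genotypes carried Mtor alleles flanked by loxP sites on a C57BL/6 background. The Mtor-cKOAdv mice also carried Adv-Cre, in which Advillin drives Cre recombinase in peripheral sensory neurons, where Cre excises Mtor exons 1 to 5. The Mtor fl/fl mice were littermates without Cre, so the loss of neuronal Mtor and the presence of the Adv-Cre allele cannot be told apart by this comparison. Values of single libraries are given in the order of replicates 1 to 4. Each library holds the RNA of 4 DRGs of a mouse, L4 and L5 on the left and on the right, and the mouse is the replicate. The study's methods name adult mice of both sexes for biochemical and behavioral tests, without saying whether this covers the sequenced mice. The other libraries came from other mice of the same genotypes, 4 Mtor-cKOAdv and 5 Mtor fl/fl, taken 7 days after bilateral spared nerve injury (SNI). They shared the estimate of the spread between mice and served as a separate set of animals in which the genotypes could be compared.

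mTOR is a protein kinase that forms complexes with other subunits. At the lysosome, complex 1 (mTORC1) is switched on by amino acids through the Rag GTPases and their regulators folliculin and its partners, and it promotes protein synthesis, lipid synthesis and cell growth while restraining lysosome biogenesis and autophagy. In sensory neurons it is best known for its part in axon growth, local protein synthesis and pain after nerve injury.

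The depth of the libraries was alike in the genotypes. The expected counts summed to between 18902897 and 21076542 (median 19205147) in Mtor-cKOAdv libraries and to between 17060876 and 19375972 (median 18979369) in Mtor fl/fl libraries. The Mtor fl/fl group was not uniform. Replicates 1 and 2 and replicates 3 and 4 formed separate pairs, with a chi-square per gene of 8.35 and 13.2 within the pairs and of 69.5 to 89.4 across them, against 5.00 to 19.7 among Mtor-cKOAdv libraries. Over the genes tested, Pearson's r of log levels was 0.9571 to 0.966 across the Mtor fl/fl pairs. Between Mtor fl/fl replicates 1 and 2 and the Mtor-cKOAdv libraries it was 0.9662 to 0.9823. By this measure, Mtor fl/fl replicates 1 and 2 lay nearer to the other genotype than to replicates 3 and 4. Mtor fl/fl replicates 3 and 4 held more transcripts of nonneuronal cells. The 15 macrophage markers summed to 263, 218, 284 and 502 FPKM in Mtor-cKOAdv replicates 1 to 4, and to 149, 146, 496 and 720 FPKM in Mtor fl/fl libraries. The 10 markers of myelinating Schwann cells summed to 3498, 3790, 3693 and 3505 FPKM in Mtor-cKOAdv libraries, against 4550, 3450, 8061 and 6172 FPKM in Mtor fl/fl libraries. For this reason the larger shifts of list counts and the named genes that lose their call without replicates 3 and 4 or without replicates 1 and 2 of the Mtor fl/fl group are given below with their values, settings chosen after the libraries had been compared. The 12 pan-neuronal markers were all detected, and their sum ran over 5488 to 5902 FPKM in Mtor-cKOAdv and 5940 to 6251 FPKM in Mtor fl/fl libraries. Skeletal muscle transcripts were highest in Mtor-cKOAdv replicate 2 (a sum of 511 FPKM, against 2.50 to 74.4 FPKM in the other 7 libraries), and of 9 spinal cord markers 1 reached 1 FPKM. In whole ganglia, fewer cells of a type and less RNA per cell cannot be told apart.

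Mtor itself, the targeted gene (gene ID 56717), was lower in Mtor-cKOAdv DRGs. Its level was 3.16, 3.87, 5.81 and 6.36 FPKM in Mtor-cKOAdv replicates 1 to 4, against 16.0, 8.58, 9.77 and 9.82 FPKM in Mtor fl/fl libraries. The genotypes did not overlap, and the log2 fold change (log2FC, Mtor-cKOAdv over Mtor fl/fl) was -1.10, with an approximate standard error (SE) of 0.29 (edgeR adjusted p = 0.0147). Reads from the exons outside the deletion and from nonneuronal cells also count toward this value. The call was lost without Mtor-cKOAdv replicate 1 (adjusted p = 0.0516) and without Mtor fl/fl replicate 1 (adjusted p = 0.0540). Avil, the gene of the actin-binding protein advillin that drives Cre in these mice, was also lower, at 170 ± 7.58 FPKM in Mtor-cKOAdv and 253 ± 52.0 FPKM in Mtor fl/fl DRGs (SD, n = 4 each), with a log2FC of -0.59 (edgeR adjusted p = 0.0281). Avil lost its call without any 1 of the 4 Mtor-cKOAdv libraries or of Mtor fl/fl replicates 1 and 2 (adjusted p 0.0507 to 0.0759), and with both of these replicates left out its adjusted p was 0.215.

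Loss of neuronal Mtor went with many small differences and a limited number of large ones, even without injury. At an adjusted p under 0.05, 1090 genes were higher (8.33% of the genes tested) and 1082 were lower (8.27%) in Mtor-cKOAdv DRGs. Most of them differed by less than 1.5-fold, namely 800 of the 1090 higher and 694 of the 1082 lower genes. With the further condition of a fold change above 2, 63 genes were called higher (0.482%) and 147 were called lower (1.12%). The genes called lower were mostly of low abundance, with a median of the group means of 1.29 FPKM in Mtor-cKOAdv and 3.25 FPKM in Mtor fl/fl DRGs, and 25 of the 147 reached 10 FPKM in Mtor fl/fl DRGs. The genes called higher had medians of 5.93 FPKM in Mtor-cKOAdv and 2.41 FPKM in Mtor fl/fl DRGs. Of the called genes, 17 of the 63 and 66 of the 147 were tested only because 1 genotype reached 1 FPKM, so that a gene near that level had to differ to be counted. The FPKM values of the genotypes did not overlap for 58 of the 63 and 136 of the 147 called genes, and for 2643 (20.2%) of all genes tested. Without Mtor fl/fl replicates 3 and 4 the counts of called genes were 73 higher and 161 lower, of which 45 and 110 were shared with the calls above, and without replicates 1 and 2 they were 125 and 325, of which 54 and 115 were shared. All 210 genes kept their direction in both settings. At an adjusted p alone, 690 genes were lower without Mtor-cKOAdv replicate 3. Counts of passing genes in the lists below stand against the 8.33% higher and 8.27% lower of all genes tested.

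**Figure D1:**
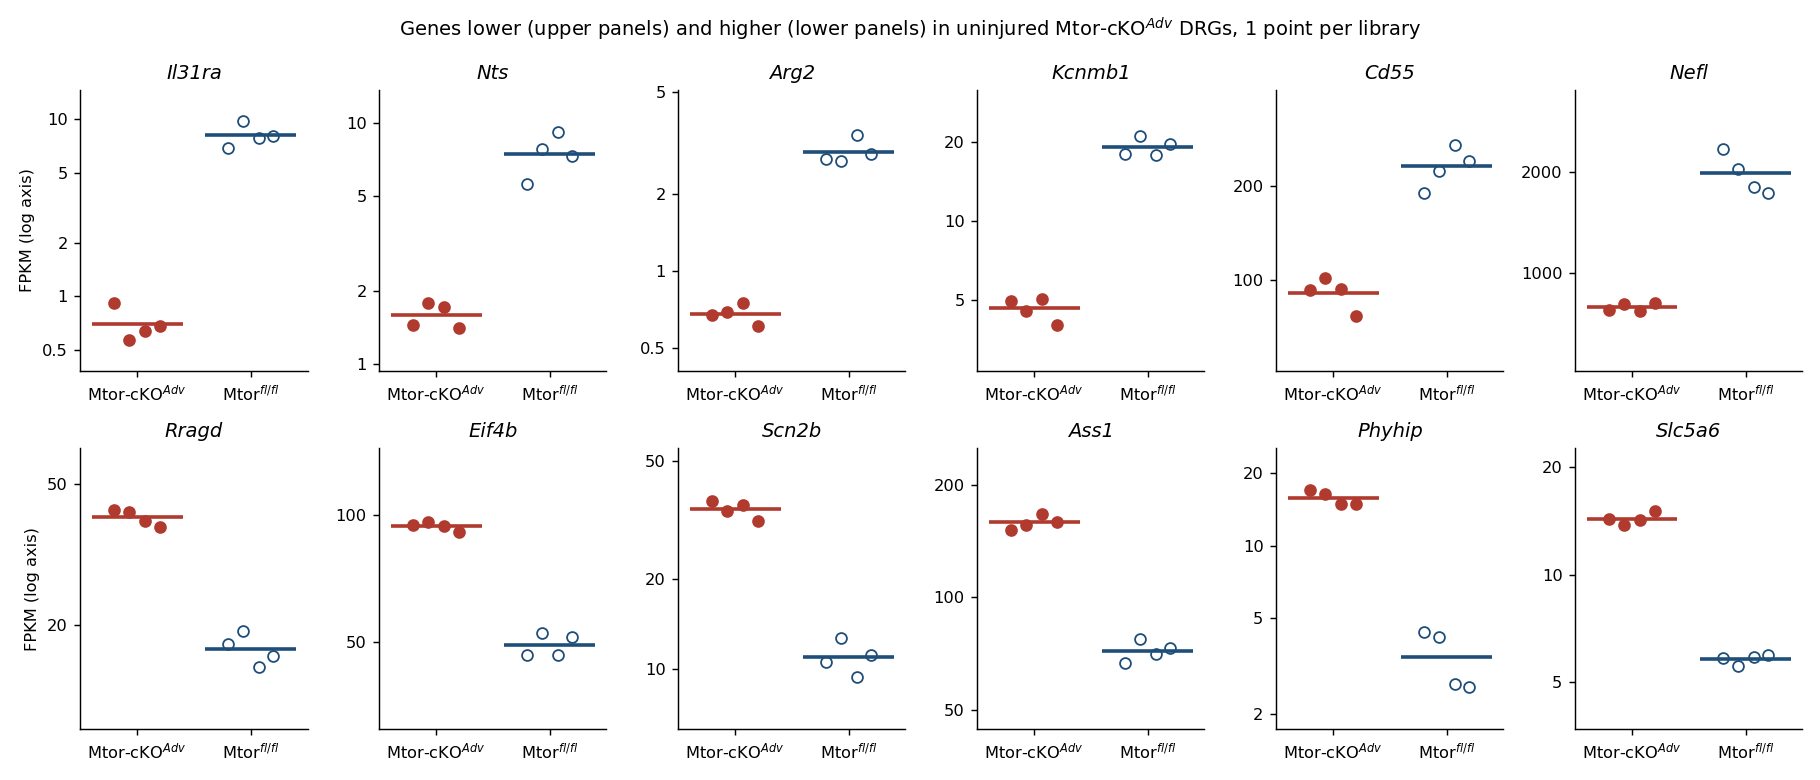
Level in FPKM (log axis) of 12 genes in each uninjured library, with Mtor-cKOAdv libraries (filled circles) left of Mtor fl/fl libraries (open circles) and bars for the group means. The upper panels hold genes lower in Mtor-cKOAdv DRGs and the lower panels genes higher there, and in each panel the 4 libraries of a genotype lie apart from those of the other.

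Genes of the amino acid branch upstream of mTORC1 were among those that were higher. Of 36 tested members of the mTOR complexes and their upstream regulators, 8 were higher, 5 were lower and 23 did not pass the edgeR test, and their median log2FC was -0.01, against -0.01 over all genes tested. Of the 4 Rag GTPase genes, Rragb, Rragc and Rragd were higher. Rragd, which encodes RagD, was at 42.2, 41.9, 39.3 and 37.9 FPKM in Mtor-cKOAdv replicates 1 to 4 and at 17.7, 19.3, 15.2 and 16.3 FPKM in Mtor fl/fl libraries. Every Mtor-cKOAdv library stood above every Mtor fl/fl library, with a log2FC of 1.23 (SE 0.10, edgeR adjusted p = 1.81e-06). Rragb, which encodes RagB, was at 36.02, 39.6, 38.7 and 37.8 FPKM in Mtor-cKOAdv libraries, against 21.6, 21.2, 22.6 and 20.9 FPKM in Mtor fl/fl libraries, again with no overlap (log2FC 0.81, SE 0.08, edgeR adjusted p = 4.22e-06). The log2FC of Rragc, which encodes RagC, was smaller, at 0.39 (edgeR adjusted p = 0.000305), and that of Rraga, the gene of RagA, was -0.02 (edgeR adjusted p = 0.865).

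The genes of the folliculin complex, which acts on RagC and RagD, were higher with them. Fnip2, a folliculin partner, was at 2.96, 2.82, 3.20 and 3.25 FPKM in Mtor-cKOAdv libraries and at 1.79, 1.37, 1.74 and 1.79 FPKM in Mtor fl/fl libraries, a log2FC of 0.87 (SE 0.08, edgeR adjusted p = 4.22e-06). Fnip1, the other partner, had a log2FC of 0.40 (edgeR adjusted p = 0.00266) and Flcn, folliculin itself, of 0.30 (edgeR adjusted p = 0.0219). The libraries of the genotypes overlapped for Flcn and not for Fnip1 or Fnip2. Of the 5 lower members, Gatsl2, which encodes CASTOR2, a homolog of the arginine sensor CASTOR1, had a log2FC of -0.94 (SE 0.12, edgeR adjusted p = 6.43e-05), and Sesn3, a sestrin that restrains mTORC1, of -0.94 (SE 0.10, edgeR adjusted p = 1.78e-05). The others were Mtor, Sesn1, another sestrin (-0.64, edgeR adjusted p = 0.0462), and Lamtor2, a subunit of the complex that anchors the Rag GTPases to the lysosome (-0.42, edgeR adjusted p = 0.0128). Of the subunits of the complexes, Mlst8, shared by both, was higher by 0.25 on the log2 scale (edgeR adjusted p = 0.0476), while the values of Rptor, which encodes raptor of mTORC1 (0.13, edgeR adjusted p = 0.528), and of Rictor of mTORC2 (0.16, edgeR adjusted p = 0.375) did not pass. Near the threshold, calls changed when 1 library was left out. Flcn lost its call without Mtor-cKOAdv replicate 3 or 4 or Mtor fl/fl replicate 2 (adjusted p 0.0528 to 0.0736), Sesn1 without Mtor-cKOAdv replicate 1, 2 or 3 or Mtor fl/fl replicate 3 or 4 (0.104 to 0.157), and Mlst8 without Mtor-cKOAdv replicate 2, 3 or 4 or Mtor fl/fl replicate 3 or 4 (0.0975 to 0.136). The list held 3 lower genes without Mtor-cKOAdv replicate 1, and 12 higher and 8 lower genes with Mtor fl/fl replicates 1 and 2 both left out. In that setting Flcn did not pass (adjusted p = 0.0900), while Rptor (0.37, adjusted p = 0.0185) and Rictor (0.39, adjusted p = 0.00785) did. With replicates 3 and 4 both left out, the adjusted p was 0.162 for Lamtor2, 0.6003 for Sesn1 and 0.298 for Mlst8.

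Lysosomal genes were higher more often than lower. Of 38 genes of lysosomal enzymes, membrane proteins and the vacuolar ATPase, 10 were higher, 2 were lower and 26 did not pass, with a median log2FC of 0.18 and 31 of the 38 above 0. The differences were small. Neu1, a lysosomal sialidase, was at 14.2, 15.6, 14.8 and 16.1 FPKM in Mtor-cKOAdv libraries, against 10.1, 10.2, 12.4 and 11.9 FPKM in Mtor fl/fl libraries, a log2FC of 0.45 (SE 0.05, edgeR adjusted p = 5.24e-05). Atp6v1e1, a subunit of the vacuolar ATPase that acidifies the lysosome, had 0.45 (edgeR adjusted p = 0.000408), Ctsf, cathepsin F, had 0.44 (edgeR adjusted p = 0.000579), Ctsa, cathepsin A, had 0.33 (edgeR adjusted p = 0.00136) and Mcoln1, a calcium channel of the lysosome, had 0.41 (edgeR adjusted p = 0.00282). The list held 13 higher and 2 lower genes without Mtor fl/fl replicates 3 and 4, and 15 and 2 without replicates 1 and 2. Of 35 genes of the autophagy machinery, 3 were higher and 8 were lower. They included Optn, an autophagy receptor, with a log2FC of 0.69 (edgeR adjusted p = 0.000176), and, in the other direction, Map1lc3b, which encodes an LC3 protein of the autophagosome membrane, with -0.39 (edgeR adjusted p = 0.00285), Becn1, beclin 1, with -0.28 (edgeR adjusted p = 0.00401) and Atg12, a conjugation factor, with -0.44 (edgeR adjusted p = 0.00250). The autophagy counts were 1 higher and 4 lower without Mtor-cKOAdv replicate 1 and 1 and 5 without its replicate 3, and 5 genes were lower without Mtor fl/fl replicate 1 or 2. Without both of these they were 8 higher and 6 lower, and without Mtor fl/fl replicates 3 and 4 they were 2 and 8.

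TFEB and TFE3, the transcription factors of lysosomal genes that mTORC1 holds in the cytoplasm, bind sequences with the core CACGTG, which reads the same on both strands and overlaps the E-box bound by other factors. The core was searched in the 250 bases upstream of each gene start in RefSeq (GRCm38.p6), a window that 10394 of the 13079 genes tested matched. It was held by 6.02% of all 32851 promoters of that table. By gene, it was held by 144 of 869 genes higher in Mtor-cKOAdv DRGs (16.6%), 56 of 869 genes lower there (6.44%) and 816 of 8656 genes that did not pass (9.43%). Among the lysosomal genes it was held by 5 of the 10 that were higher and by 8 of the 20 others with a window, and among the mTOR complex and regulator genes it was held by 3 of the 8 that were higher and 4 of the 25 others. Windows of 4 of these genes are given to show where the core lies, with the core in capitals. Rragb (chrX:153139708-153139957, + strand) holds it 127 and 36 bases upstream of its start, Rragc (chr4:123917183-123917432, + strand) 112 bases, Fnip1 (chr11:54437929-54438178, + strand) 75 bases and Mcoln1 (chr8:3500269-3500518, + strand) 71 and 45 bases upstream, counted to the first base of the core. Rragd, which differed most, has none in this window, and neither have Fnip2, Flcn, Mlst8, Neu1 and Atp6v1e1, which were also higher. A match describes these letters and is not a measured binding site.
Rragb: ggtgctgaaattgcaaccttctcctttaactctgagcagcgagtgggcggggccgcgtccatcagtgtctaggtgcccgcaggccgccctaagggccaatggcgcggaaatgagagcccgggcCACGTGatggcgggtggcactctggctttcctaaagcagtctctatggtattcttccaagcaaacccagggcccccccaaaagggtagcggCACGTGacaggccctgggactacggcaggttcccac
Rragc: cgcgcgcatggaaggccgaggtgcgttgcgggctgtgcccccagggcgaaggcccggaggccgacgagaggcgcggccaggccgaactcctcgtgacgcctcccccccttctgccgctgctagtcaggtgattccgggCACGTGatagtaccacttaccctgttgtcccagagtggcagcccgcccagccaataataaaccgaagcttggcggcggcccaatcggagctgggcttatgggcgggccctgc
Fnip1: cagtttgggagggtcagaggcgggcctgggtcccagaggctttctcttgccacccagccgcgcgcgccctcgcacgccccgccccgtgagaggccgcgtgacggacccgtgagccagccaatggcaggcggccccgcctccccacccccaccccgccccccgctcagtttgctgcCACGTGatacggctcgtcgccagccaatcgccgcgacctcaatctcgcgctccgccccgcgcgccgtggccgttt
Mcoln1: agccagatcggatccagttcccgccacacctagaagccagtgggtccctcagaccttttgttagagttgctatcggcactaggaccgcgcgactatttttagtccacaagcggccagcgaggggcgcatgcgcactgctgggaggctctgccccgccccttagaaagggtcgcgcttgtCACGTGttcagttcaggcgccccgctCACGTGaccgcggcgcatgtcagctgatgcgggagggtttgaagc

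**Figure D2:**
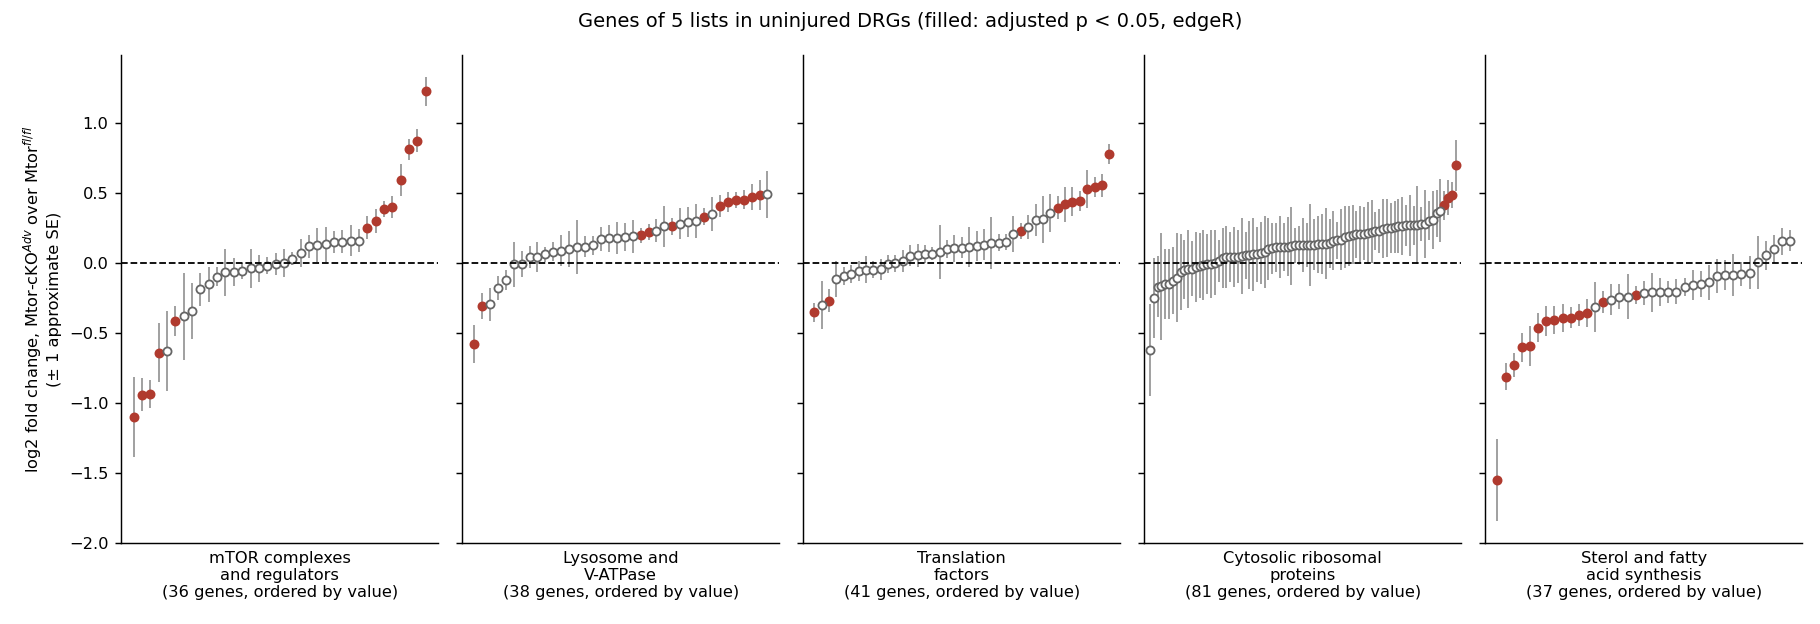
Log2 fold change (Mtor-cKOAdv over Mtor fl/fl, uninjured, with bars of 1 SE) of every tested member of 5 lists: mTOR complexes and regulators, lysosome, translation factors, ribosomal proteins, and sterol and fatty acid synthesis. Filled points passed the edgeR test and open points did not, and the dashed line marks no difference. Rragd lies highest and Mtor lowest in the first list, and in the sterol list all 14 filled points lie below the line.

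Downstream of mTORC1, Eif4b showed the clearest difference. Eif4b, an initiation factor that helps to unwind mRNA, was at 94.9, 96.2, 94.3 and 91.1 FPKM in Mtor-cKOAdv libraries, against 46.8, 52.7, 46.8 and 51.6 FPKM in Mtor fl/fl libraries. The libraries did not overlap, and the log2FC was 0.93 (SE 0.07, edgeR adjusted p = 1.12e-06). Of 28 effectors of mTOR and genes of its insulin feedback, 4 were higher and none was lower (1 by DESeq2 and 1 at an unadjusted p under 0.05). The shares over all genes tested were 8.33% and 8.27%. Beside Eif4b, the higher ones were Akt1, a kinase upstream of mTORC1 and target of mTORC2 (0.46, edgeR adjusted p = 0.000408), Grb10, an adaptor that dampens insulin signaling (0.46, edgeR adjusted p = 0.0175), and Foxo3, a forkhead factor held back by Akt (0.36, edgeR adjusted p = 0.0304), all as log2FCs. Foxo3 did not pass without Mtor-cKOAdv replicate 1, 3 or 4 or Mtor fl/fl replicate 1, 3 or 4 (adjusted p 0.0610 to 0.0884), nor Grb10 without Mtor-cKOAdv replicate 4 or Mtor fl/fl replicate 1 (0.0526 to 0.0527). The list held 2 higher genes without Mtor-cKOAdv replicate 4 and 7 without Mtor fl/fl replicate 2. It held 9 higher and 2 lower genes without Mtor fl/fl replicates 1 and 2, where Grb10 did not pass (adjusted p = 0.108), and 3 higher and 1 lower without replicates 3 and 4, where Foxo3 did not (adjusted p = 0.154).

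Of 41 initiation and elongation factors, 9 were higher and 2 were lower, with a median log2FC of 0.11. Eif3f, a subunit of the initiation factor eIF3, was at 162, 172, 176 and 196 FPKM in Mtor-cKOAdv libraries and at 86.6, 97.6, 108 and 121 FPKM in Mtor fl/fl libraries, with no overlap and a log2FC of 0.78 (SE 0.07, edgeR adjusted p = 3.36e-06). Eef2, which moves the ribosome along the mRNA, was at 588 ± 39.1 FPKM in Mtor-cKOAdv and 400 ± 31.4 FPKM in Mtor fl/fl DRGs (SD, n = 4 each; log2FC 0.55, edgeR adjusted p = 0.000190), and Eef1g, a subunit of the elongation factor that brings transfer RNA, had a log2FC of 0.54 (edgeR adjusted p = 7.86e-05). Of 81 cytosolic ribosomal protein genes, 4 were higher and none was lower (0 also by DESeq2 and at an unadjusted p under 0.05), with a median of 0.13 and 64 of the 81 above 0. The 4 were Rpl3 (0.70), Rpl4 (0.49), Rps4x (0.41) and Rpl22 (0.47), at edgeR adjusted p of 0.0149, 0.00244, 0.0129 and 0.0167, and reads of such genes can be shared with near-identical pseudogenes. That count rested on the make-up of the Mtor fl/fl group, being 43 higher and 0 lower (median 0.57) without its replicates 3 and 4, and 1 higher and 2 lower (median -0.23) without its replicates 1 and 2. Rpl22 did not pass without Mtor fl/fl replicate 1 (adjusted p 0.0531), and with replicates 1 and 2 both left out Rpl3, Rps4x and Rpl22 did not (adjusted p 0.108, 0.127 and 0.137). The initiation and elongation factors then numbered 13 higher and 4 lower, and 11 and 1 without replicates 3 and 4.

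Genes of sterol and fatty acid synthesis, which mTORC1 promotes through the SREBP transcription factors, were lower more often than higher. Of 37 members, none was higher (0 also by DESeq2 and at an unadjusted p under 0.05), 14 were lower and 23 did not pass, with a median log2FC of -0.21 and 32 of the 37 below 0. Scd1, which introduces the double bond of oleic acid, was at 149, 144, 141 and 147 FPKM in Mtor-cKOAdv libraries, against 241, 257, 280 and 241 FPKM in Mtor fl/fl libraries, so that all 4 Mtor-cKOAdv libraries were lower (log2FC -0.81, SE 0.10, edgeR adjusted p = 5.30e-05). Tm7sf2, a sterol reductase late in cholesterol synthesis, had a log2FC of -0.73 (edgeR adjusted p = 5.01e-05), Idi1, an isomerase of the mevalonate pathway, of -0.60 (edgeR adjusted p = 0.000819), and Pmvk, a kinase of that pathway, of -0.39 (edgeR adjusted p = 0.00195). Hmgcs1, at the entry of the pathway, had -0.42 (edgeR adjusted p = 0.0166). Thrsp, a regulator of lipid synthesis that adipocytes also express, was the member that differed most, at 4.00, 6.42, 5.21 and 10.4 FPKM in Mtor-cKOAdv libraries and 13.2, 11.3, 22.0 and 31.3 FPKM in Mtor fl/fl libraries. The 7 adipocyte markers summed to 13.4, 15.1, 27.0 and 75.9 FPKM in Mtor-cKOAdv libraries and to 15.9, 6.53, 19.2 and 267 FPKM in Mtor fl/fl libraries, and the part of adipocytes in the value of Thrsp was not tested. The list held 20 lower and 0 higher genes without Mtor fl/fl replicates 3 and 4, and 11 lower and 3 higher genes without replicates 1 and 2. Hmgcs1 did not pass without Mtor-cKOAdv replicate 4 or Mtor fl/fl replicate 1 (adjusted p 0.0538 to 0.0554), nor with Mtor fl/fl replicates 1 and 2 both left out (0.0993).

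Of 17 genes of arginine and polyamine metabolism, 1 was higher and 2 were lower, against 8.33% higher and 8.27% lower of all genes tested. Arg2, the mitochondrial arginase that breaks arginine down to ornithine, was at 0.67, 0.69, 0.75 and 0.61 FPKM in Mtor-cKOAdv libraries and at 2.73, 2.68, 3.41 and 2.86 FPKM in Mtor fl/fl libraries, a 4.30-fold lower level with no overlap (log2FC -2.11, SE 0.15, edgeR adjusted p = 3.23e-07). Ass1, which carries out the rate-limiting step of arginine synthesis from citrulline, was at 152, 156, 168 and 160 FPKM in Mtor-cKOAdv libraries and at 66.5, 77.1, 70.5 and 73.3 FPKM in Mtor fl/fl libraries, 2.21-fold higher (log2FC 1.14, SE 0.12, edgeR adjusted p = 1.20e-05). Asl, the next enzyme of arginine synthesis, had a log2FC of -0.27 (edgeR adjusted p = 0.0161). Asl did not pass with the 8 uninjured libraries alone or with the replicate number as a block (edgeR adjusted p up to 0.0994). The list held 2 higher and 4 lower genes without Mtor fl/fl replicates 3 and 4, and 1 higher and 6 lower without replicates 1 and 2. Of 28 targets of ATF4, the factor of the amino acid response, 1 was higher and 1 was lower. The lower gene was Atf4 itself, at 83.3 ± 2.92 FPKM in Mtor-cKOAdv and 110 ± 16.98 FPKM in Mtor fl/fl DRGs (SD, n = 4 each; log2FC -0.41, edgeR adjusted p = 0.00302). The counts of this list were 0 higher and 4 lower without Mtor fl/fl replicates 3 and 4, against 4 and 6 without replicates 1 and 2. Of 25 genes of glycolysis and HIF1 targets, 3 were higher and 1 was lower, against 8.33% and 8.27% of all genes tested. Slc2a3, the neuronal glucose transporter GLUT3, was at 46.3, 44.8, 44.4 and 40.9 FPKM in Mtor-cKOAdv libraries, against 26.3, 25.4, 19.1 and 18.9 FPKM in Mtor fl/fl libraries (log2FC 0.97, SE 0.14, edgeR adjusted p = 0.000195), and Eno2, the neuronal enolase, had 0.79 (edgeR adjusted p = 0.0112), while Aldoc, an aldolase, had -0.62 (edgeR adjusted p = 0.000803). Eno2 did not pass without Mtor fl/fl replicates 3 and 4 (adjusted p = 0.108), where 2 genes of this list were higher and 2 lower, against 8 and 2 without replicates 1 and 2. Transporters of vitamins were among the genes called higher. Slc5a6, which takes up biotin and pantothenate, was at 14.3, 13.8, 14.2 and 15.1 FPKM in Mtor-cKOAdv libraries and at 5.86, 5.54, 5.87 and 5.97 FPKM in Mtor fl/fl libraries, with a log2FC of 1.29 (SE 0.07, edgeR adjusted p = 1.98e-08), and Slc52a3, a riboflavin transporter, had 1.62 (SE 0.14, edgeR adjusted p = 2.52e-06).

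Markers of the NP3 class of itch neurons, which detect interleukin-31, leukotrienes and serotonin and signal with natriuretic peptide B, were lower throughout. All 8 of them passed the edgeR test, with a median log2FC of -1.28, and 5 were called lower. Il31ra, the receptor of interleukin-31 (gene ID 218624), was at 0.92, 0.57, 0.64 and 0.68 FPKM in Mtor-cKOAdv replicates 1 to 4, against 6.90, 9.81, 7.81 and 8.11 FPKM in Mtor fl/fl libraries. The groups lay far apart, with 11.4-fold less transcript in Mtor-cKOAdv DRGs (log2FC -3.51, SE 0.19, edgeR adjusted p = 1.98e-08). Osmr, the oncostatin M receptor that pairs with it, differed less, at 9.04, 7.48, 8.07 and 9.07 FPKM in Mtor-cKOAdv libraries and 13.0, 15.7, 13.1 and 13.9 FPKM in Mtor fl/fl libraries (log2FC -0.74, SE 0.10, edgeR adjusted p = 9.18e-05).

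The peptide genes among these markers were lower too. Nppb, which encodes natriuretic peptide B, was at 5.16, 7.67, 7.33 and 7.57 FPKM in Mtor-cKOAdv libraries, against 10.2, 15.2, 26.4 and 21.4 FPKM in Mtor fl/fl libraries (log2FC -1.37, SE 0.32, edgeR adjusted p = 0.00717). Sst, which encodes somatostatin, was at 3.09, 2.22, 3.66 and 1.99 FPKM in Mtor-cKOAdv libraries and at 5.19, 11.2, 21.6 and 19.2 FPKM in Mtor fl/fl libraries, where replicate 1 was the lowest (log2FC -2.35, SE 0.34, edgeR adjusted p = 0.000229). Nts, which encodes neurotensin, was at 1.45, 1.78, 1.72 and 1.40 FPKM in Mtor-cKOAdv libraries and at 5.59, 7.80, 9.20 and 7.30 FPKM in Mtor fl/fl libraries (log2FC -2.23, SE 0.29, edgeR adjusted p = 8.65e-05). For all 3 peptides the groups did not overlap. Of the other receptors, Htr1f, a serotonin receptor, had a log2FC of -1.20 (edgeR adjusted p = 8.48e-05) and Cysltr2, a leukotriene receptor, of -0.77 (edgeR adjusted p = 0.00266), and the kinase Jak1 had -0.59 (edgeR adjusted p = 0.0115). The size of the difference varied widely among these markers. Without Mtor fl/fl replicates 3 and 4, and also without replicates 1 and 2, 7 of the 8 markers passed, all lower. The exception was Nppb in the first setting (-0.94, adjusted p = 0.0805) and Jak1 in the other (-0.28, adjusted p = 0.0892).

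**Figure D3:**
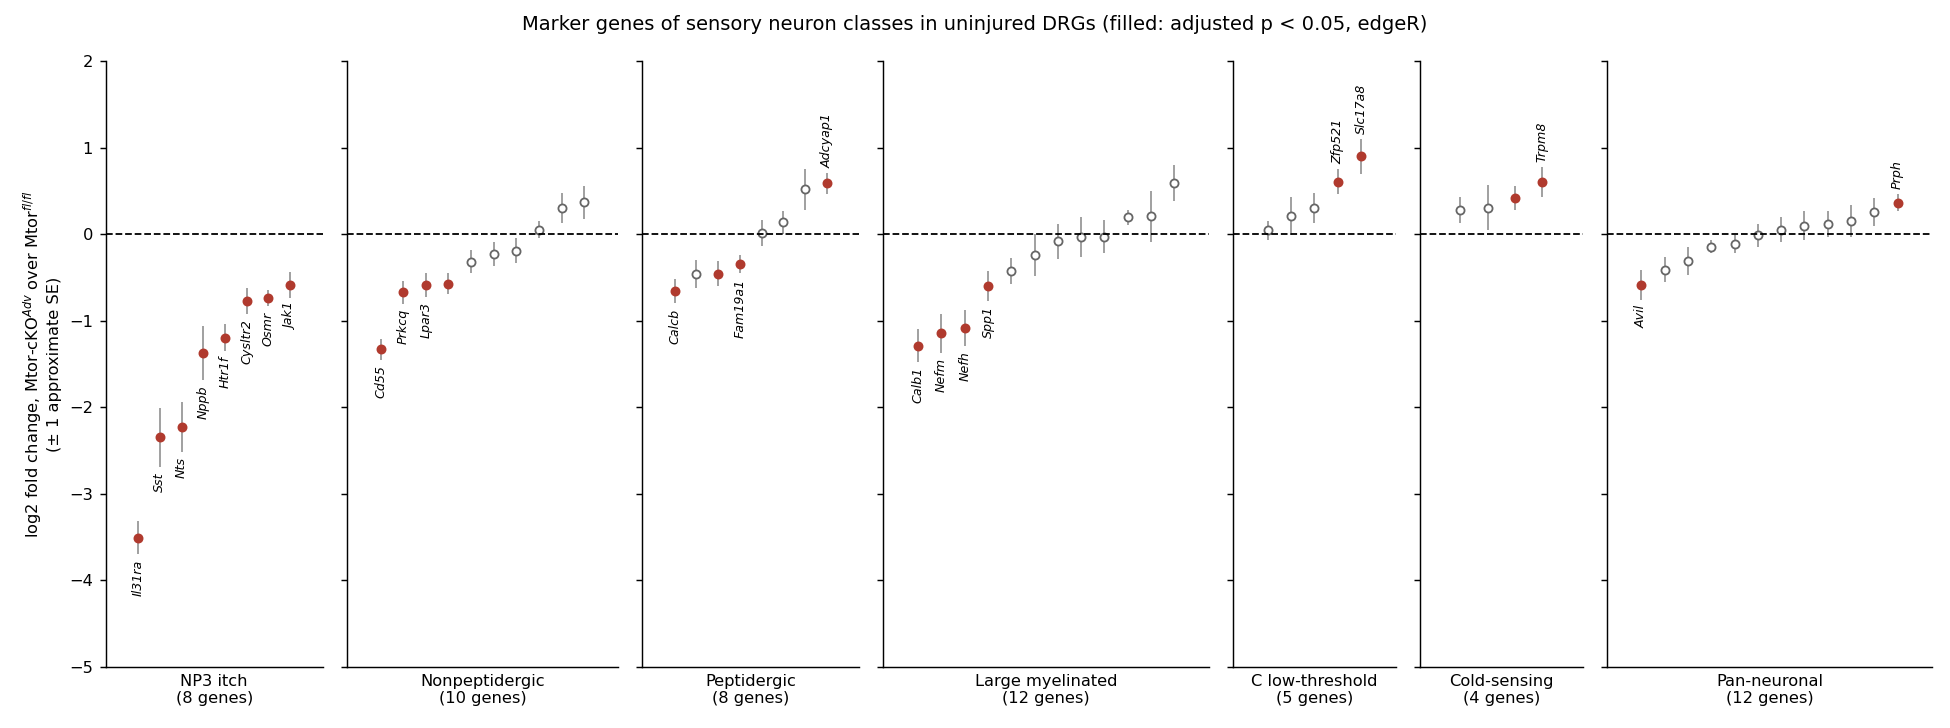
Log2 fold change (Mtor-cKOAdv over Mtor fl/fl, uninjured, with bars of 1 SE) of the marker genes of sensory neuron classes, with filled points for those that passed the edgeR test, named where the text describes them, and open points for those that did not. All 8 NP3 markers lie below the dashed line of no difference, while markers of cold-sensing neurons and C low-threshold mechanoreceptors lie above it.

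Neurofilament genes, whose products fill the axons of large myelinated neurons, were among the most abundant of the genes called lower. Nefl, the light chain, was at 779, 810, 770 and 814 FPKM in Mtor-cKOAdv libraries, against 2337, 2042, 1800 and 1736 FPKM in Mtor fl/fl libraries. The 4 Mtor-cKOAdv libraries differed little among themselves and lay 2.51-fold below the others (log2FC -1.33, SE 0.15, edgeR adjusted p = 2.20e-05). Nefm, the medium chain, was at 480, 468, 444 and 386 FPKM in Mtor-cKOAdv libraries and at 1300, 1101, 727 and 752 FPKM in Mtor fl/fl libraries (log2FC -1.14, SE 0.23, edgeR adjusted p = 0.00266). Nefh, the heavy chain, was at 303, 296, 285 and 266 FPKM in Mtor-cKOAdv libraries and at 804, 675, 466 and 455 FPKM in Mtor fl/fl libraries (log2FC -1.08, SE 0.21, edgeR adjusted p = 0.00224). In each case Mtor fl/fl replicate 1 was the highest library. The other intermediate filaments of sensory neurons were higher, Prph, peripherin, by 0.36 (edgeR adjusted p = 0.0205) and Ina, internexin, by 0.63 (edgeR adjusted p = 0.00687) on the log2 scale. Prph did not pass without Mtor-cKOAdv replicate 2 or 3 or Mtor fl/fl replicate 3 (adjusted p 0.05003 to 0.0657). With Mtor fl/fl replicates 3 and 4 both left out, neither Prph (adjusted p = 0.140) nor Ina (adjusted p = 0.0539) passed.

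Most other markers of large myelinated neurons did not pass the edgeR test. Of 12 such markers, which include Nefm and Nefh, 4 were lower and 8 did not pass, with a median of -0.16. Calb1, the calcium-binding protein calbindin, was at 5.31, 5.40, 5.64 and 7.10 FPKM in Mtor-cKOAdv libraries and at 14.3, 14.4, 15.5 and 12.8 FPKM in Mtor fl/fl libraries (log2FC -1.29, SE 0.19, edgeR adjusted p = 0.000227), and Spp1, osteopontin, had -0.60 (edgeR adjusted p = 0.0262). Pvalb, parvalbumin of proprioceptive neurons, was at 73.1, 170, 80.2 and 103 FPKM in Mtor-cKOAdv libraries and at 109, 53.5, 126 and 85.8 FPKM in Mtor fl/fl libraries, with a log2FC of 0.21 (edgeR adjusted p = 0.686). Spp1 did not pass without Mtor-cKOAdv replicate 1, 3 or 4 or Mtor fl/fl replicate 1 or 3 (adjusted p 0.0599 to 0.0850), nor without replicates 3 and 4 (0.0573). The list held 2 higher and 4 lower markers without Mtor fl/fl replicates 1 and 2.

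Among nociceptors, genes of both main classes were lower in part. Of 10 markers of nonpeptidergic nociceptors, 4 were lower and 6 did not pass, with a median of -0.28. Cd55, a regulator of complement on the cell surface, was at 93.1, 101, 93.6 and 77.1 FPKM in Mtor-cKOAdv libraries, against 189, 223, 270 and 240 FPKM in Mtor fl/fl libraries, with no overlap (log2FC -1.33, SE 0.13, edgeR adjusted p = 4.22e-06). Prkcq, a protein kinase C, had a log2FC of -0.67 (edgeR adjusted p = 0.00242) and Lpar3, a receptor of lysophosphatidic acid, of -0.59 (edgeR adjusted p = 0.00680), whereas Mrgprd, a receptor that defines a large class of them, had 0.37 (edgeR adjusted p = 0.217). Fxyd2, a regulatory subunit of the sodium pump that nonpeptidergic nociceptors express, was at 468, 491, 521 and 471 FPKM in Mtor-cKOAdv libraries, against 716, 1009, 1531 and 1457 FPKM in Mtor fl/fl libraries (log2FC -1.25, SE 0.17, edgeR adjusted p = 0.000158). Of 8 markers of peptidergic nociceptors, 1 was higher and 3 were lower. They included Adcyap1, which encodes the peptide PACAP (0.59, edgeR adjusted p = 0.00376), and, in the lower direction, Calcb, which encodes a form of CGRP (-0.66, edgeR adjusted p = 0.00401), and Fam19a1, a secreted protein (-0.35, edgeR adjusted p = 0.0317). The count of lower markers of this class was 1 without Mtor-cKOAdv replicate 1, 2 or 3 or Mtor fl/fl replicate 1 or 2. Fam19a1 passed only without Mtor fl/fl replicate 4 among the 8 fits that left out 1 uninjured library (adjusted p 0.0502 to 0.0921 in the others). With Mtor fl/fl replicates 1 and 2 both left out, Fam19a1 had an adjusted p of 0.0968, and Mrgprd was higher (0.64, adjusted p = 0.0274).

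The markers of cold-sensing neurons and of C low-threshold mechanoreceptors that passed were higher. Trpm8, the channel that detects cold, was at 18.4, 16.6, 18.4 and 16.9 FPKM in Mtor-cKOAdv libraries and at 13.4, 12.6, 8.58 and 9.81 FPKM in Mtor fl/fl libraries (log2FC 0.60, SE 0.18, edgeR adjusted p = 0.0281), and of the 4 markers of cold-sensing neurons 2 passed, both higher. Of 5 markers of C low-threshold mechanoreceptors, 2 were higher, Slc17a8, the vesicular glutamate transporter VGLUT3 (0.90, edgeR adjusted p = 0.00668), and the zinc finger gene Zfp521 (0.61, edgeR adjusted p = 0.00768). Of 4 markers of the NP2 class of itch neurons, 3 lay below 0 and did not pass, and the median was -0.05. The remaining one, Mrgprb4, a receptor of neurons that respond to stroking in mice, was called higher, at 16.1, 12.04, 12.7 and 11.1 FPKM in Mtor-cKOAdv libraries and 3.73, 9.02, 5.03 and 7.91 FPKM in Mtor fl/fl libraries (log2FC 1.02, SE 0.24, edgeR adjusted p = 0.00926). Trpm8 did not pass without Mtor-cKOAdv replicate 1, 2 or 3 or Mtor fl/fl replicate 3 or 4 (adjusted p 0.0526 to 0.0862), and without both of the last 2 its adjusted p was 0.216, that of Slc17a8 0.0672 and that of Zfp521 0.0783, so that 0 markers of either class passed. Of the 12 pan-neuronal markers, 1 was higher and 1 was lower, Prph and Avil. Their counts were 0 higher and 3 lower without Mtor fl/fl replicates 3 and 4, against 4 and 1 without replicates 1 and 2.

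Npy, which encodes neuropeptide Y, was already lower before injury, at levels close to the limit of detection. It was at 0.09, 0.10, 0.19 and 0 FPKM in Mtor-cKOAdv libraries and at 2.54, 2.15, 1.26 and 3.93 FPKM in Mtor fl/fl libraries. Summed over the 4 libraries of each genotype, it had 4 counts in Mtor-cKOAdv and 100 in Mtor fl/fl DRGs, a ratio of 26.3 relative to library size in favor of Mtor fl/fl (95% counting interval 9.98 to 98.6), and its fitted log2FC was -4.56 (SE 0.88, edgeR adjusted p = 0.00230). Of 17 neuropeptide precursors tested, 1 was higher, 6 were lower and 10 did not pass, with a median of -0.17. Beside Npy, Nts, Sst, Nppb and Calcb, the lower ones included Nmb, which encodes neuromedin B, at 97.0 ± 10.7 FPKM in Mtor-cKOAdv and 153 ± 41.8 FPKM in Mtor fl/fl DRGs (SD, n = 4 each; log2FC -0.64, edgeR adjusted p = 0.0175). Tac1, which encodes substance P, had a log2FC of 0.01 (edgeR adjusted p = 0.963) and Gal, galanin, of 0.52 (edgeR adjusted p = 0.148). Nmb did not pass without Mtor-cKOAdv replicate 1 or 3 or Mtor fl/fl replicate 3 (adjusted p 0.0511 to 0.0651), nor without Mtor fl/fl replicates 3 and 4 (0.180). The precursors then numbered 1 higher and 4 lower, and 3 and 7 without replicates 1 and 2.

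Among 49 G protein-coupled receptors of sensory neurons, 5 were higher and 7 were lower, against 8.33% higher and 8.27% lower of all genes tested. Ptger1, the prostaglandin E2 receptor EP1, was higher, at 26.5, 27.7, 29.9 and 28.3 FPKM in Mtor-cKOAdv libraries and 13.2, 15.4, 15.4 and 16.2 FPKM in Mtor fl/fl libraries (log2FC 0.76, SE 0.09, edgeR adjusted p = 3.11e-05), and Ptgdr, the prostaglandin D2 receptor, had a log2FC of -0.75 (edgeR adjusted p = 0.000339). Mrgpre, a receptor of the Mrgpr family, had 0.65 (edgeR adjusted p = 0.00144). Htr1a, a serotonin receptor outside that list, was called lower, at 0.50, 0.50, 0.36 and 0.68 FPKM in Mtor-cKOAdv libraries and 2.15, 2.65, 2.07 and 2.59 FPKM in Mtor fl/fl libraries (log2FC -2.21, SE 0.22, edgeR adjusted p = 9.03e-06). For the list, 3 genes were higher without Mtor-cKOAdv replicate 4 or Mtor fl/fl replicate 3 or 4, and 4 were lower without Mtor-cKOAdv replicate 4 or Mtor fl/fl replicate 1 or 2. Leaving out Mtor fl/fl replicates 3 and 4 gave 3 higher and 11 lower receptors, and leaving out replicates 1 and 2 gave 13 and 6.

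The ion channel genes that were called included subunits that accompany or modify a pore, and also channels such as P2rx5 and P2rx2, given further below. Scn2b, the β2 subunit of voltage-gated sodium channels, was at 36.8, 33.9, 35.5 and 31.5 FPKM in Mtor-cKOAdv libraries and at 10.6, 12.7, 9.44 and 11.2 FPKM in Mtor fl/fl libraries. All Mtor-cKOAdv libraries were well above the others, 3.13-fold on average (log2FC 1.65, SE 0.15, edgeR adjusted p = 3.36e-06). Kcnmb1, the β1 subunit of the BK calcium-activated potassium channel, was at 4.95, 4.53, 5.04 and 4.01 FPKM in Mtor-cKOAdv libraries and at 18.0, 21.1, 17.8 and 19.7 FPKM in Mtor fl/fl libraries, 4.14-fold lower (log2FC -2.05, SE 0.16, edgeR adjusted p = 1.18e-06). Kcng4, a modifier of Kv2 channels, had -1.69 (SE 0.24, edgeR adjusted p = 0.000178) and Kcnip1, which associates with Kv4 channels, had -1.13 (SE 0.15, edgeR adjusted p = 0.000103), both lower.

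Of 26 sodium and calcium channel genes, 2 were higher, Scn2b and Scn2a1, an α subunit (0.74, edgeR adjusted p = 0.00563), and none was lower (0 also by DESeq2 and at an unadjusted p under 0.05). Scn2a1 did not pass with the 8 uninjured libraries alone (edgeR adjusted p = 0.0617). Scn10a, the nociceptor channel Nav1.8, had a log2FC of 0.48 (edgeR adjusted p = 0.152), and of 0.93 without Mtor fl/fl replicates 1 and 2 (adjusted p = 0.00415). Of 50 potassium and HCN channel genes, 5 were higher and 5 were lower, against 8.33% and 8.27% of all genes tested. Among them was the 2-pore channel gene Kcnk13, at 6.84 ± 0.856 FPKM in Mtor-cKOAdv and 3.73 ± 0.686 FPKM in Mtor fl/fl DRGs (SD, n = 4 each; log2FC 0.88, edgeR adjusted p = 3.70e-05). The counts of these 2 lists rested on the Mtor fl/fl libraries, with 2 higher and 4 lower sodium and calcium channel genes without replicates 3 and 4 and 14 higher and 0 lower without replicates 1 and 2, and with 3 higher and 11 lower against 18 higher and 4 lower potassium and HCN channel genes. Of these channels, 8 were higher without Mtor fl/fl replicate 2 alone, and 3 were lower without replicate 1 alone and 8 without replicate 4 alone. Of 39 channels of sensory transduction and transmitter receptors, 2 were higher and 9 were lower, among them the ATP-gated channels P2rx5 (-1.03, edgeR adjusted p = 0.000830) and P2rx2 (-1.03, edgeR adjusted p = 0.00365). Without Mtor-cKOAdv replicate 4, 5 of these 39 were lower, and the counts were 0 higher and 13 lower without Mtor fl/fl replicates 3 and 4, against 7 and 5 without replicates 1 and 2. Sv2a, a synaptic vesicle protein, was called higher, at 32.5, 27.3, 30.9 and 29.2 FPKM in Mtor-cKOAdv libraries and 15.3, 15.4, 9.40 and 10.2 FPKM in Mtor fl/fl libraries (log2FC 1.24, SE 0.20, edgeR adjusted p = 0.000601), and Rab3b, a GTPase of secretory vesicles, had 0.78 (edgeR adjusted p = 0.000836). Of 36 genes of synaptic vesicles and exocytosis, 5 were higher and 2 were lower, against 8.33% and 8.27% of all genes tested. The numbers for this list were 3 and 5 without Mtor fl/fl replicates 3 and 4 and 15 and 0 without replicates 1 and 2.

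Further genes that differed most belonged to none of the lists. On the lower side, Scin, the actin-severing protein scinderin, was at 0.35, 0.31, 0.33 and 0.28 FPKM in Mtor-cKOAdv libraries and 3.25, 3.99, 2.89 and 2.88 FPKM in Mtor fl/fl libraries (log2FC -3.40, SE 0.31, edgeR adjusted p = 3.31e-06). Cryba2, a crystallin, had 4 counts in Mtor-cKOAdv and 106 in Mtor fl/fl DRGs, a ratio of 27.9 (95% counting interval 10.6 to 104). Fgf11, an intracellular fibroblast growth factor homolog, was at 2.85 ± 0.132 FPKM in Mtor-cKOAdv and 9.83 ± 2.57 FPKM in Mtor fl/fl DRGs (SD, n = 4 each; log2FC -1.86, edgeR adjusted p = 8.42e-06), Cdhr1, a cadherin-related protein, was at 3.70 ± 0.235 and 13.0 ± 2.78 FPKM (log2FC -1.83, edgeR adjusted p = 1.21e-05), and Barx2, a homeobox factor, was at 0.29 ± 0.0404 and 1.70 ± 0.651 FPKM (log2FC -2.48, edgeR adjusted p = 2.24e-05), in the same order of genotypes. Pip5kl1, which encodes a protein related to phosphatidylinositol phosphate kinases, was at 0.22, 0.35, 0.60 and 0.31 FPKM in Mtor-cKOAdv libraries and 3.10, 3.17, 2.32 and 2.02 FPKM in Mtor fl/fl libraries (log2FC -2.69, edgeR adjusted p = 1.21e-05). Aldh1a7, an aldehyde dehydrogenase, had -2.33 (edgeR adjusted p = 3.82e-05) and Aox4, an aldehyde oxidase, -2.35 (edgeR adjusted p = 1.21e-05). Sh3bgr, whose product has an SH3-binding domain, was more abundant, at 4.05, 6.80, 3.53 and 4.68 FPKM in Mtor-cKOAdv libraries and 16.3, 12.8, 17.4 and 16.4 FPKM in Mtor fl/fl libraries (log2FC -1.74, edgeR adjusted p = 2.11e-05). Others were of low level in both genotypes, such as Fbp1, the gluconeogenic fructose bisphosphatase (-2.18), and Cldn9, a claudin of tight junctions (-1.97), at edgeR adjusted p of 0.000153 and 4.24e-05.

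On the higher side, Phyhip, which encodes a protein that interacts with phytanoyl-CoA hydroxylase, was at 15.8 ± 1.07 FPKM in Mtor-cKOAdv libraries, against 3.46 ± 0.957 FPKM in Mtor fl/fl libraries (SD, n = 4 each), with no overlap (log2FC 2.17, SE 0.22, edgeR adjusted p = 1.10e-05). Islr2, a membrane protein of growing sensory axons, was at 6.31 ± 0.632 FPKM in Mtor-cKOAdv and 1.72 ± 0.332 FPKM in Mtor fl/fl DRGs (SD, n = 4 each; log2FC 1.90, edgeR adjusted p = 2.52e-06). Xylb, a xylulokinase, had a log2FC of 2.02 (edgeR adjusted p = 2.63e-07), Ptpn5, the neuronal phosphatase STEP, of 1.59 (edgeR adjusted p = 1.12e-06), Pianp, a neuronal ligand of the receptor PILRα, of 1.60 (edgeR adjusted p = 4.99e-05), and Wnt2b, a Wnt ligand, of 1.35 (edgeR adjusted p = 6.06e-05). Other genes called higher act at synapses or in signaling. Cbln1, a cerebellin that organizes synapses, was at 7.31, 5.78, 7.03 and 4.86 FPKM in Mtor-cKOAdv libraries and 1.11, 2.95, 1.73 and 2.27 FPKM in Mtor fl/fl libraries (log2FC 1.63, edgeR adjusted p = 0.000449). Tnr, the matrix protein tenascin-R, had a log2FC of 1.26 (edgeR adjusted p = 0.000609), Slc6a7, a transporter of proline at nerve terminals, of 1.35 (edgeR adjusted p = 0.000112), Rgs14, a regulator of G protein signaling, of 1.31 (edgeR adjusted p = 0.000114), and Gng13, a G protein γ subunit, of 2.30 (edgeR adjusted p = 0.00220). Bex1, a small protein of regenerating neurons in mice, was at 26.9, 27.0, 30.4 and 34.8 FPKM in Mtor-cKOAdv libraries and 6.91, 7.52, 11.4 and 17.1 FPKM in Mtor fl/fl libraries, where the lowest Mtor-cKOAdv library stood above the highest Mtor fl/fl library (log2FC 1.50, edgeR adjusted p = 4.84e-05).

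The 3 largest fold changes among the genes called higher were those of the muscle genes Myh7, Myh2 and Myl3, which overlapped between the genotypes and rested on Mtor-cKOAdv replicate 2. Myh2, a myosin heavy chain, was at 0, 7.42, 0.86 and 0.03 FPKM in Mtor-cKOAdv libraries and at 0.03, 0.01, 0.06 and 0.12 FPKM in Mtor fl/fl libraries. Without that library the adjusted p was 0.2996 for Myh2, 0.256 for Myh7 and 0.271 for Myl3, and leaving out any 1 of the Mtor fl/fl libraries, either pair of them, or Mtor-cKOAdv replicate 3 for Myl3, also ended the calls.

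None of the listed markers of glia, immune cells, fibroblasts or vascular cells was called at a fold change above 2. This covers the listed markers only. Some genes called lower outside the lists were highest in Mtor fl/fl replicates 3 and 4 and did not pass at day 7, so this split also enters the calls. Of 10 markers of myelinating Schwann cells, 2 were lower and 8 did not pass, with a median log2FC of -0.51. Mbp, myelin basic protein, was at 676, 742, 702 and 700 FPKM in Mtor-cKOAdv libraries and at 933, 702, 2607 and 1568 FPKM in Mtor fl/fl libraries, where replicates 3 and 4 were the highest and replicate 2 lay within the Mtor-cKOAdv range (log2FC -0.99, SE 0.33, edgeR adjusted p = 0.0477). Mbp did not pass without any 1 of the Mtor-cKOAdv libraries or of Mtor fl/fl replicates 3 and 4 (adjusted p 0.0806 to 0.215), and without both of these Mtor fl/fl replicates its adjusted p was 0.532. Without replicates 1 and 2, all 10 Schwann cell markers, 6 of the 10 satellite glia markers and 5 of the 6 erythroid markers were lower, as were 4 endothelial and mural and 2 macrophage markers. Of 10 satellite glia markers 1 was lower, and of 15 macrophage, 9 fibroblast, 10 endothelial and mural and 6 erythroid markers none passed the edgeR test (at an unadjusted p under 0.05, 1 endothelial and mural marker was higher and 2 were lower, and DESeq2 called 1 of these lower). Their medians changed sign with the Mtor fl/fl libraries left out. The median of the macrophage markers was 1.00 without replicates 3 and 4 and -0.79 without replicates 1 and 2, and no direction is given for these cells.

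**Figure D4:**
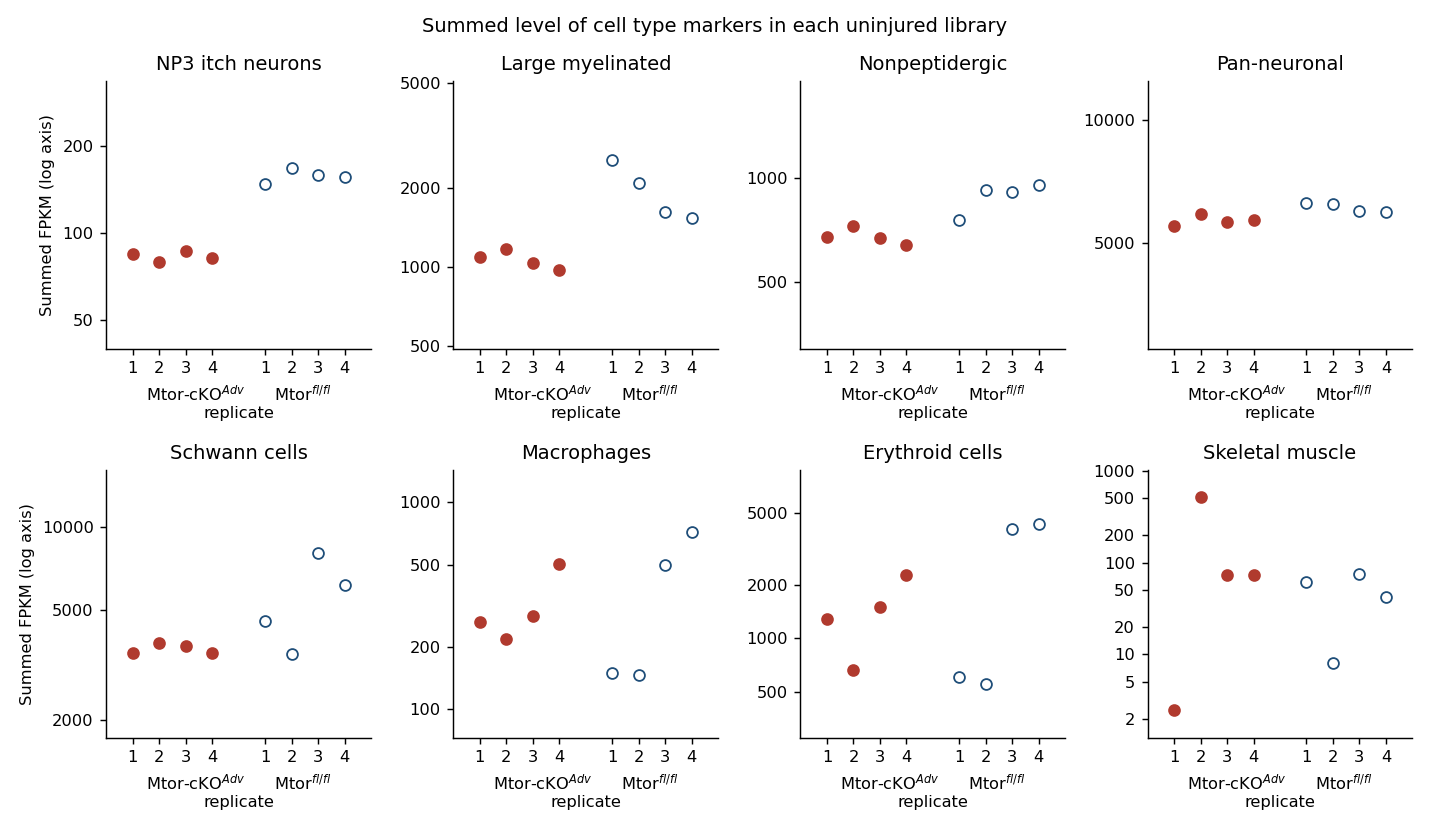
Summed level in FPKM (log axis) of the markers of 8 cell types in each uninjured library, with Mtor-cKOAdv replicates 1 to 4 (filled circles) left of Mtor fl/fl replicates 1 to 4 (open circles). The NP3 sums of the Mtor-cKOAdv libraries lie below all Mtor fl/fl sums, whereas the macrophage, Schwann cell and erythroid sums of Mtor fl/fl replicates 3 and 4 lie above those of replicates 1 and 2. Jak1 gives the largest part of each NP3 sum, so that panel does not weigh the NP3 markers alike.

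The differences seen before injury were largely present in the separate mice examined 7 days after SNI. In that comparison, 13.0% of the genes tested were higher and 13.2% were lower at an adjusted p under 0.05. Of the 63 genes called higher at baseline, 62 had the same direction at day 7 and 54 (85.7%) passed there. Of the 147 called lower, 137 had the same direction and 121 (82.3%) passed, and no gene passed in the opposite direction. At day 7, 133 of the genes tested were called higher and 140 lower. The genes tested had been chosen by their level in uninjured DRGs. Genes below 1 FPKM in both uninjured groups are therefore missing from these counts and from the shares of day 7 calls. The genes called at both times were 34 higher ones, which were 54.0% of the baseline calls and 25.6% of the day 7 calls, and 88 lower ones, which were 59.9% and 62.9%. Of 9 skeletal muscle markers tested, 8 were higher at day 7 (median log2FC 3.27), so the genes called higher then include muscle transcripts. Their part in these shares was not tested. Across all 13079 genes, Pearson's r between the log2FCs of the 2 time points was 0.580, a value that describes genes and not replicates. The median log2FC of the genes called lower was -1.31 at baseline and -1.13 at day 7. Il31ra had -3.99 at day 7 (edgeR adjusted p = 4.19e-09), Nefl -1.24 (edgeR adjusted p = 1.82e-05), Kcnmb1 -2.52 (edgeR adjusted p = 5.65e-08), Arg2 -2.28 (edgeR adjusted p = 3.55e-08), Scn2b 1.67 (edgeR adjusted p = 1.36e-06), Ass1 1.19 (edgeR adjusted p = 3.51e-06) and Rragd 0.90 (edgeR adjusted p = 1.28e-05). In the lists, 23 of 37 sterol and fatty acid genes were lower at day 7 and none was higher, 14 of 38 lysosomal genes were higher and 3 lower, and all 8 NP3 markers were lower (median -1.11).

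**Figure D5:**
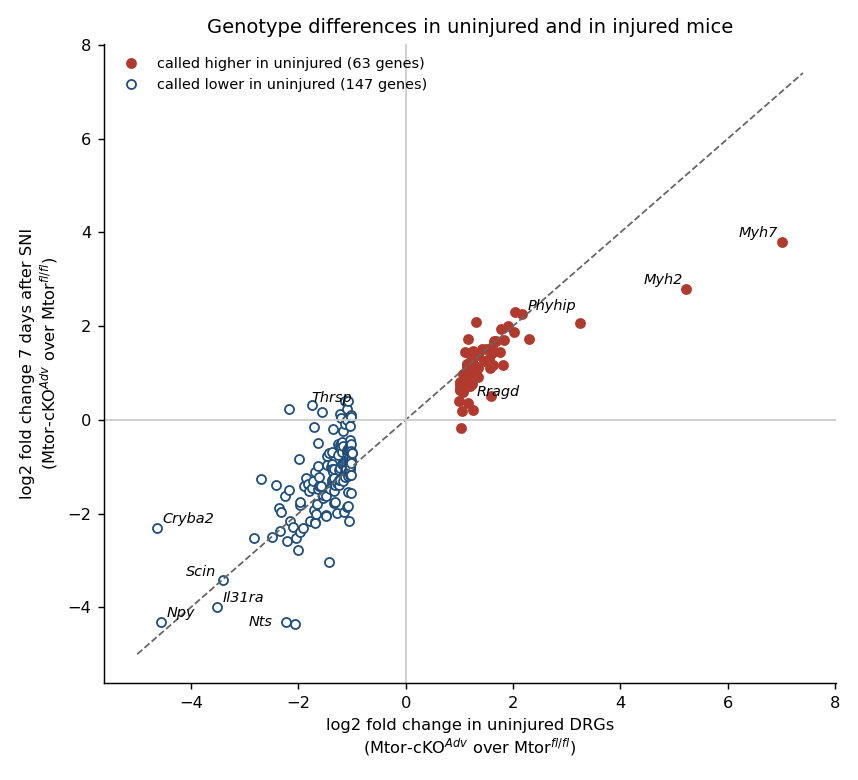
Log2 fold change between the genotypes (Mtor-cKOAdv over Mtor fl/fl) at day 7 after SNI, on the vertical axis, against that in uninjured DRGs, on the horizontal axis, for the 63 genes called higher (filled circles) and the 147 called lower (open circles) in uninjured DRGs. Most points lie near the dashed line of equal values, and the muscle genes at the far right and Thrsp, near 0 at day 7, lie off it.

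The difference between the genotypes itself differed between the time points for few genes in the edgeR fit. The test of the interaction passed for 9 of 13079 genes (0.0688%), of which Ptpn5 had been called higher at baseline and Adgrf5, a receptor of endothelial cells, lower. Ptpn5 had a log2FC of 1.59 at baseline and 0.51 at day 7, a difference of -1.08 (edgeR adjusted p = 0.0161). Pik3r1, which encodes the regulatory p85α subunit of PI3 kinase upstream of mTOR, was at 15.8, 15.2, 15.9 and 17.9 FPKM in uninjured Mtor-cKOAdv libraries and at 27.0, 26.1, 34.4 and 30.8 FPKM in uninjured Mtor fl/fl libraries. Its log2FC was -0.82 (SE 0.07, edgeR adjusted p = 2.45e-06) at baseline and -0.25 at day 7, a difference of 0.57 (edgeR adjusted p = 0.0363). Megf9, a membrane protein with EGF-like repeats, had -0.58 at baseline and 0.17 at day 7, a difference of 0.75 (edgeR adjusted p = 0.0112). Thrsp had -1.55 at baseline and 0.17 at day 7, and the interaction did not pass for it (edgeR adjusted p = 0.114). The count depended on the libraries and the tool. Without Mtor fl/fl replicate 2 there were 51 such genes, 1 without Mtor-cKOAdv replicate 2, 5 without its replicate 1 and 6 without its replicate 3, 1273 without Mtor fl/fl replicates 1 and 2, 13 without replicates 3 and 4, and 263 by DESeq2.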

How the data were processed

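RNA from DRGs of 17 mice was sequenced by the authors, of which 8 uninjured mice are compared here. Per the study's methods, reads were mapped to GRCm38.p5, whereas the submitters' processing notes name mm9 and the tools HISAT2 2.0.4, Bowtie2 2.2.5 and RSEM 1.2.12, so no coordinate is taken from the files. The deposited tables hold RSEM expected counts, of which 36% are not whole and were rounded here, and FPKM values, which the authors normalized for transcript length and library size. Other sheets, under another replicate numbering, were not used, nor were 8 columns of 2 libraries that match no sample used here. In the count table, 11 symbols that were dates or duplicates were mended by gene ID, and 1 entry without a gene ID held 0 counts.

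Genes whose mean FPKM was 1 or more in either uninjured group were fitted in edgeR 4.0.16 (TMM, quasi-likelihood, with limma 3.58.1 and R 4.3.3) with all 17 libraries, each genotype and time being a group with no covariate, and p-values were adjusted by Benjamini-Hochberg over 13079 genes. Approximate standard errors (SE) are the absolute log2 fold change (log2FC) divided by the square root of F. A gene passed at an adjusted p under 0.05 and was called if its fold change was also above 2. Because each list is described by its count and median, no set test was run. Counting intervals of summed counts are exact at 95% and cover counting error only. Alternatives were DESeq2 1.42.0, RLE scaling, other filters, the 8 uninjured libraries alone, a robust spread, a replicate block, a muscle covariate and left-out libraries. The scripts used Python 3.11.15, pandas 2.3.3, NumPy 2.4.6, SciPy 1.17.1 and Matplotlib 3.10.9. Promoter sequences are from RefSeq (GRCm38.p6).

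The comparison and the 42 gene lists (974 genes, 968 found among the symbols) were chosen with earlier results of these data known. The text names Mtor, called genes whose libraries do not overlap (up to 30 per direction, by fold change) and up to 4 genes of smallest p per list, and some genes that this rule selects are not reported here. Others were chosen after their values were seen: 0610007P14Rik, Adgrf5, Aff1, Arhgap31, Cysltr2, Flcn, Fnip1, Fxyd2, Gal, Gatsl2, Hmgcs1, Jak1, Lamtor2, Masp1, Mcoln1, Megf9, Mlst8, Mrgprd, Myh7, Myl3, Nmb, Nppb, Pik3r1, Pmvk, Pvalb, Rictor, Rptor, Rraga, Rragc, Scn10a, Sesn1, Tac1 and Tacc1. Separate mice are the replicates, as the study's methods state.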

Additional observations from a re-analysis of the deposited data

Results flagged for a closer look

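In 19 of 312 sets of 4 uninjured libraries, formed by the genotypes for each named gene and each marker sum, 1 library lay far from the other 3 by Dixon's criterion for 4 samples, which chance gives in about 1 of 20 sets. Mtor was at 15.97 FPKM in Mtor fl/fl replicate 1, against 8.58 to 9.82 FPKM in the other Mtor fl/fl libraries. Among the itch genes, Nppb was at 5.16 FPKM in Mtor-cKOAdv replicate 1, against 7.33 to 7.67 FPKM in the others of that genotype, and Cysltr2 was at 4.91 FPKM in Mtor fl/fl replicate 1, against 7.37 to 7.87 FPKM. Gal, galanin, was at 30.23 FPKM in Mtor-cKOAdv replicate 3, against 22.03 to 22.15 FPKM.

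Mtor-cKOAdv replicate 2 stood apart for Myh2 (7.42 FPKM), Myh7 (6.64 FPKM) and the summed skeletal muscle markers (510.9 FPKM, against 2.50 to 73.7 FPKM in the other Mtor-cKOAdv libraries), and also for Adcyap1 (46.27 FPKM) and Islr2 (5.37 FPKM). Mtor-cKOAdv replicate 4 did so for Eno2 (398.4 FPKM), Fam19a1 (5.34 FPKM), the summed spinal cord markers (4.55 FPKM) and the summed genes of the interferon response (447.5 FPKM, against 177.5 to 215.6 FPKM in the other Mtor-cKOAdv libraries). In the Mtor fl/fl group, replicate 2 stood apart for Fbp1 (1.66 FPKM), Fnip2 (1.37 FPKM) and Slc17a8 (4.77 FPKM), and replicate 4 for Asl (14.17 FPKM), Myh7 (0.03 FPKM) and the summed adipocyte markers (267.4 FPKM, against 6.53 to 19.2 FPKM).

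The difference between the genotypes was itself different at day 7 and at baseline for 9 genes by the edgeR interaction test, with adjusted p under 0.05. As day 7 minus baseline on the log2 scale, this was -1.08 for Ptpn5 and -0.52 for 0610007P14Rik, and 0.57 for Pik3r1, 0.75 for Megf9, 0.95 for Masp1, 0.67 for Adgrf5, 0.56 for Tacc1, 0.57 for Arhgap31 and 0.74 for Aff1.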

How the results depend on the processing

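The counts of called genes, 63 higher and 147 lower, changed little with the normalization or the tool. They were 67 and 156 by DESeq2, which held 60 and 147 of the calls, and 60 and 151 with RLE scaling. All 210 called genes kept their direction in every alternative fit that tested them except 1, the muscle gene Myh2, at -2.11 on the log2 scale without Mtor-cKOAdv replicates 2 and 3. More genes were called lower when more low genes were tested, 232 with the filterByExpr filter and 263 without a filter, where 264 called genes passed at day 7 (175 of 210 in the reported comparison). Leaving out 1 uninjured library gave 54 to 83 called higher and 128 to 156 called lower, and 727 to 1373 higher and 690 to 1144 lower at an adjusted p under 0.05 alone, with 164 to 190 called genes passing at day 7. Leaving out pairs of libraries moved the counts more. Without Mtor fl/fl replicates 1 and 2, 125 genes were called higher and 325 lower (2292 and 2102 at an adjusted p alone). Without Mtor-cKOAdv replicates 2 and 3, 424 were higher and 411 lower at an adjusted p alone, without Mtor-cKOAdv replicate 4 and Mtor fl/fl replicates 3 and 4 664 genes were higher, and with the spread estimated from the 8 uninjured libraries alone 619 were higher and 624 lower. These sets of libraries were chosen after the libraries had been compared.

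The number of genes with an interaction was the least stable count, 9 in the reported comparison, 1 to 51 without 1 library, 263 by DESeq2, 5 with the filterByExpr filter, 1 with the summed muscle markers as a covariate, 27 with the replicate number as a block, 21 without Mtor-cKOAdv replicate 4 and Mtor fl/fl replicates 3 and 4, 1273 without Mtor fl/fl replicates 1 and 2, and 0 without Mtor-cKOAdv replicates 2 and 3. The cause was not tested.

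Of 125 named genes that passed, 86 passed under all 21 alternatives and 39 lost the call under at least 1. With the 8 uninjured libraries alone, 16 lost it, among them Asl, Scn2a1, Rpl3 and Rps4x. The values of genes that did not pass changed sign in some fits. Tac1 had -0.0387 without Mtor-cKOAdv replicates 2 and 3, -0.13 without Mtor fl/fl replicates 1 and 2, -0.00135 with the muscle covariate, and -0.0387 to 0.0735 without 1 library. When 1 library was left out, Rraga ran over -0.0506 to 0.0136, the highest without Mtor fl/fl replicate 2. Rptor had -0.0986 and Rictor -0.0597 when Mtor fl/fl replicates 3 and 4 were left out, and with Mtor-cKOAdv replicate 4 left out too -0.11 and -0.00836. Pvalb had -0.12 to 0.35 without 1 library, the lowest without Mtor-cKOAdv replicate 2, and -0.0850 without its replicates 2 and 3.

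The replicate numbers were not used to pair the mice of the 2 genotypes. Deviations from the group means correlated at 0.118, 0.052, -0.126 and 0.618 for replicates 1 to 4, and only replicates 4 correlated best with each other. The split between Mtor fl/fl replicates 1 and 2 and replicates 3 and 4 enters these correlations, so they cannot exclude a pairing. With the replicate number as a block, 67 genes were called higher and 128 lower, and Mtor had an adjusted p of 0.0535. Ganglia of 4 mice per genotype limit the comparison of small differences, and genes below 1 FPKM rest on few counts.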

Other observations

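Of 24 genes of nerve injury and regeneration tested in uninjured DRGs, 3 were lower in Mtor-cKOAdv mice, 2 of them over 2-fold. None was higher (2 at an unadjusted p under 0.05 in the edgeR test and 0 by DESeq2). Over all genes tested, 8.27% were lower and 8.33% higher. The median log2FC of the list was 0.06, and 14 of the 24 lay above 0. The counts were 3 higher and 3 lower without Mtor fl/fl replicates 1 and 2. The lower ones were Npy, Nts and Jun, a transcription factor induced in injured neurons. Jun was at 18.4, 16.2, 15.9 and 22.5 FPKM in uninjured Mtor-cKOAdv libraries, against 35.4, 33.9, 33.0 and 28.7 FPKM in uninjured Mtor fl/fl libraries, so that the groups did not overlap (log2FC -0.85, SE 0.15, edgeR adjusted p = 0.00144). At day 7 after SNI its log2FC was -0.13 (edgeR adjusted p = 0.533), and the interaction did not pass (edgeR adjusted p = 0.180).

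Of 14 genes of the interferon response, 1 was higher, Ifit2, at 13.1, 14.6, 14.5 and 16.4 FPKM in Mtor-cKOAdv libraries and 10.2, 10.2, 10.7 and 12.4 FPKM in Mtor fl/fl libraries (log2FC 0.43, edgeR adjusted p = 0.0111), although the summed level of the list stood apart in Mtor-cKOAdv replicate 4. Of 55 subunits of oxidative phosphorylation, 2 were higher and 1 was lower, with a median log2FC of -0.15, and 4 were higher and 21 lower without Mtor fl/fl replicates 1 and 2. Of 17 receptors and ligands of the neurotrophin and GDNF families, 2 were higher and 2 were lower, against 6 and 1 in that setting. None of 9 immediate early genes passed the edgeR test (DESeq2 called 1 lower, and 3 were lower at an unadjusted p under 0.05). Jun, given above with the genes of nerve injury, is not among these 9.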
